A study of Homo sapiens with 6 samples.

Results

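CDX1, CDX2 and CDX4 are the human caudal-type homeobox genes. Every β-catenin peak that the study's lists assign to them was taken, at any distance from the transcription start site (TSS). They had 6 of the 3126 peaks in the 3 lists of the series. CDX2 had 3 of these peaks, CDX1 had 3 and CDX4 had none. The cells were of SA121, a line of human embryonic stem cells, and binding was mapped by chromatin immunoprecipitation of β-catenin and sequencing (ChIP-seq). Cells were kept for 6 h in RPMI-1640 medium with CHIR99021 and SB431542 (CHIR+SB), with CHIR99021 alone (CHIR), or with neither inhibitor (RPMI, labelled mock). CHIR99021 blocks GSK3, a kinase that targets β-catenin for destruction, and SB431542 blocks signalling by the activin, Nodal and TGFβ receptors. Each condition had 1 β-catenin library and 1 goat IgG library, each made from pooled parallel ChIPs, so no spread between replicates exists and no p-value between conditions is given. All 6 samples came from the same cell line, and peak lists hold no expression values, so whether the CDX genes were transcribed, and the identity of the cells, could not be checked from them.

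The CDX proteins are homeodomain transcription factors related to Drosophila caudal. They bind regulatory DNA of HOX genes and help to set the position of trunk and tail structures, and CDX1 and CDX2 also specify intestinal epithelium. CDX2 is in addition required for trophectoderm, the outer layer of the blastocyst. Together with GSX1 and PDX1, CDX2 forms the ParaHox cluster on chromosome 13. In mouse embryos the Cdx genes respond to Wnt signalling, in which stabilised β-catenin enters the nucleus and is brought to DNA by TCF/LEF factors, and Cdx1 and Cdx4 have been described there as direct targets.

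The RefSeq promoter sequences of 2 of the 3 genes, CDX2 and CDX4, are shown, and neither of these genes had a peak at its start site. CDX1 did not match the promoter table. Its promoter was not searched, so the sequences give no contrast with CDX1. Each sequence runs 5′ to 3′ from 250 bases before the RefSeq start to 50 after it (GRCh38.p14). Capitals mark CTTTGA, the core letters bound by TCF/LEF factors, and ATGCAAA, the first letters of the octamer bound by POU factors such as OCT4, searched on both strands. The CDX2 promoter lies on the minus strand at chr13:27969266-27969565 and the CDX4 promoter on the plus strand at chrX:73446803-73447102.
CDX2: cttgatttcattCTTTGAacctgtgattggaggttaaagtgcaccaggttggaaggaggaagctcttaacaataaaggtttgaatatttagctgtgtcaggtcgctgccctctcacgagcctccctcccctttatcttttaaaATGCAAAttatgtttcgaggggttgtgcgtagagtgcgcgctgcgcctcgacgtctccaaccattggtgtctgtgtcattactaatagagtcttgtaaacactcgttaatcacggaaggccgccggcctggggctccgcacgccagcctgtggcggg
CDX4: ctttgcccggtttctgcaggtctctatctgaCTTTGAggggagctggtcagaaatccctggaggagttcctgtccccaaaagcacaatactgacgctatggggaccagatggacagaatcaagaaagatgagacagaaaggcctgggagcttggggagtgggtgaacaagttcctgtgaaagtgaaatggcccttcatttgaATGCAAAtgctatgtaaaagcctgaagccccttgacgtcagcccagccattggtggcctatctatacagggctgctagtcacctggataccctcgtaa
In the CDX2 promoter CTTTGA began 238 bases before the start and ATGCAAA 107 bases before it. In the CDX4 promoter they began 219 and 48 bases before the start. Of 35116 promoters of this length, 12.9% held CTTTGA and 4.46% held ATGCAAA. The related core CTTTGT was in 16.1% of promoters and the longer CTTTGAT, which contains CTTTGA, in 2.62%, and neither was found in these 2 windows. These matches are descriptions of letters, and the build differs from that of the peak lists.

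CDX1 and CDX2 each carried β-catenin peaks in CHIR+SB and in CHIR, and no CDX gene had one in RPMI. In CHIR+SB, 2 of the 3 genes had a peak, against a background of 6.25% of 20056 protein-coding genes with a CHIR+SB peak at any distance. In CHIR the same 2 genes had a peak, against a background of 3.80%. In RPMI none of the 3 did, against a background of 1.14%. The number of peaks assigned to the 3 genes was 4 in CHIR+SB, 2 in CHIR and 0 in RPMI. The lists hold 1813 peaks in CHIR+SB, 1053 in CHIR and 260 in RPMI, with 39022, 39408 and 6272 β-catenin reads within them. Relative to RPMI, the depth of the β-catenin library was 1.14 in CHIR+SB and 1.67 in CHIR, and that of the IgG library 1.75 and 0.976, taken as the inverse of the authors' scaling factors, which assumes that they scaled to a common depth. The lowest peak had 12 reads in CHIR+SB, 20 in CHIR and 15 in RPMI.

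**Figure D1:**
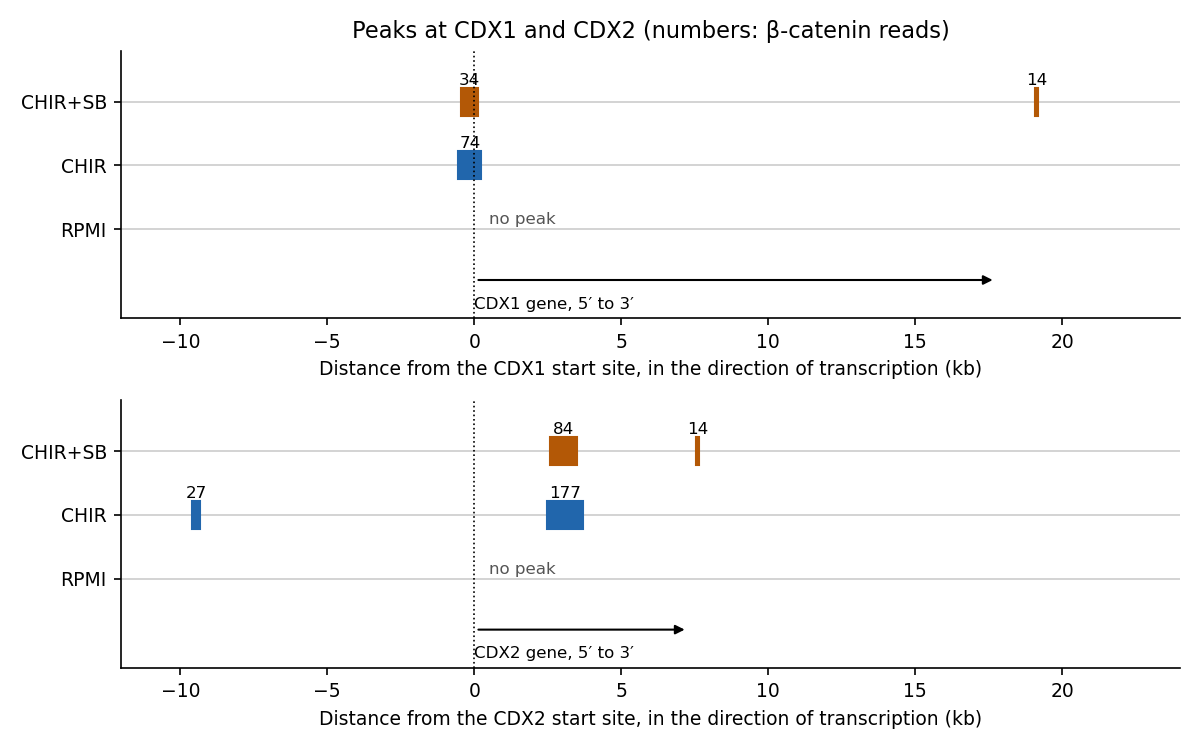
Peaks at CDX1 (upper panel) and CDX2 (lower panel), drawn to scale by distance from the start site in kb in the direction of transcription, with CHIR+SB, CHIR and RPMI from top to bottom. Numbers are β-catenin reads in each peak. The main peak of each gene has the same place in CHIR+SB and CHIR, the peaks of 14 reads beyond the gene ends stand in CHIR+SB, and the peak of 27 reads left of CDX2 is assigned to the neighbouring gene URAD.

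At CDX1, β-catenin lay over the start site. The CHIR+SB peak covered chr5:149545901-149546470 (hg19) and held 34 β-catenin reads and 8 IgG reads. The CHIR peak covered chr5:149545802-149546587 and held 74 β-catenin reads and 6 IgG reads. Both peaks spanned the TSS at position 149546343, with their centres 157.5 bp upstream of it in CHIR+SB and 148.5 bp upstream in CHIR. The 2 centres were 9 bp apart, where the median over 642 pairs of peaks shared by the 2 lists was 49 bp. Only CDX1 of the 3 genes had a peak within 1 kb of its TSS, in CHIR+SB and in CHIR, against a background of 1.15% of protein-coding genes in CHIR+SB and 1.26% in CHIR. In RPMI, where the background was 0.663%, none did. A second CDX1 peak, of 14 reads and 6 IgG reads, was in the CHIR+SB list at chr5:149565425-149565533, 19.1 kb from the TSS and 1.36 kb beyond the end of the gene.

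At CDX2, β-catenin lay inside the gene and away from the start site. The CHIR+SB peak covered chr13:28539994-28540922 (hg19) and held 84 β-catenin reads and 32 IgG reads. The CHIR peak covered chr13:28539820-28541028 and held 177 β-catenin reads and 12 IgG reads. Their centres were 3.05 kb (CHIR+SB) and 3.08 kb (CHIR) from the TSS at position 28543505, in a gene of 7301 bp. The edge nearest to the TSS was 2583 bp away in CHIR+SB and 2477 bp in CHIR, so neither peak reached the start site. Whether the site is exonic or intronic was not determined, because no annotation in hg19 was used here. A second CDX2 peak, of 14 reads and 6 IgG reads, was in the CHIR+SB list at chr13:28535846-28535972, 7.60 kb from the TSS and 0.295 kb beyond the end of the gene.

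CDX4 had no peak in any list. It lies on chromosome X, where the lists held few peaks: 13 in CHIR+SB, 11 in CHIR and 2 in RPMI. Of 848 protein-coding genes on chromosome X, 1.42% had a CHIR+SB peak at any distance, 1.18% a CHIR peak and 0.236% an RPMI peak, each below the share of all protein-coding genes given above. The part this plays in the absence of a CDX4 peak was not tested.

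The normalized signal of a peak is its read count multiplied by 1 factor per library. CDX2 had the strongest signal of the 3 genes with both treatments. Its main peak had a signal of 47.3 in CHIR+SB (exact Poisson interval of 95%, 37.7 to 58.5) and 68.0 in CHIR (58.3 to 78.8). The CDX1 start-site peak had 19.1 in CHIR+SB (13.2 to 26.7) and 28.4 in CHIR (22.3 to 35.7). Within a library the CDX2 peak had 2.47 times the signal of the CDX1 peak in CHIR+SB (exact interval 1.64 to 3.80) and 2.39 times in CHIR (1.81 to 3.18). Signal per kb of peak differed less between the genes: CDX2 had 50.9 per kb and CDX1 33.6 per kb in CHIR+SB, a ratio of 1.51 (1.01 to 2.33), and CDX2 had 56.3 and CDX1 36.2 in CHIR, a ratio of 1.55 (1.18 to 2.07). All intervals here cover counting error of reads only, and reads are not independent molecules.

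**Figure D2:**
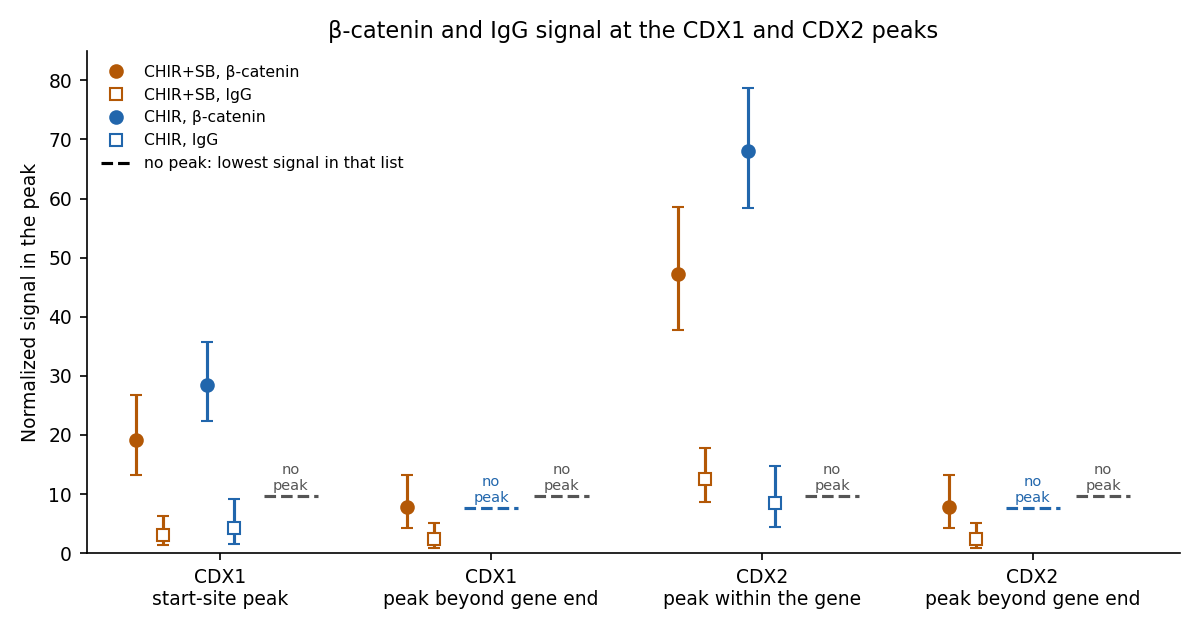
Normalized β-catenin signal (filled circles) and IgG signal (open squares) in each CDX1 and CDX2 peak in CHIR+SB, CHIR and RPMI, from left to right at each site, with exact 95% Poisson intervals. Dashes stand at the lowest signal of a list that has no peak there, which is 7.68 in CHIR and 9.61 in RPMI; both main peaks lie well above these levels, and the CHIR+SB peaks beyond the gene ends, at 7.88, lie beside them.

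In the order of the lists, the CDX2 peak ranked 8th of 1813 in CHIR+SB and 3rd of 1053 in CHIR by reads. The CDX1 start-site peak ranked 187th in CHIR+SB and 59th in CHIR. Relative to the median peak of the list, signal at CDX2 was 4.94 times as high in CHIR+SB and 5.71 times in CHIR. At CDX1 the signal of 19.1 in CHIR+SB stood against a list median of 9.56, and the 28.4 in CHIR against 11.9. The CDX2 peak was also the widest peak of the whole CHIR list at 1208 bp, where the median width was 368 bp. In CHIR+SB it measured 928 bp and was the 11th widest, where the median was 260 bp.

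The comparison of each treatment with RPMI asks whether stabilising β-catenin adds binding at these genes. The CDX2 peak was the highest of the 874 CHIR peaks that overlapped no RPMI peak by at least 1 bp. Only the RBM39 and ERCC6L2 peaks were higher in CHIR, and both overlapped RPMI peaks. In CHIR+SB the CDX2 peak was the 4th highest of 1654 peaks without an overlapping RPMI peak, after those of EVX1, LINC01124 and SP5. The CDX1 peak was the 116th highest of these in CHIR+SB and the 25th highest of the 874 in CHIR. Of the 60 CHIR peaks with at least as many reads as CDX1, 34 overlapped an RPMI peak and 26 did not.

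The depth of the RPMI library bears on what its list could hold. A signal as high as that at CDX2 would correspond to 73.7 RPMI reads at its CHIR+SB level and 106 RPMI reads at its CHIR level. For the CDX1 start-site peak the values are 29.8 reads at its CHIR+SB level and 44.3 reads at its CHIR level. All 4 values exceed the 15 reads of the lowest RPMI peak. The lowest peak of a list is not a known calling threshold, so this does not show that such signals would have been listed. The CHIR+SB peaks beyond the gene ends, with a signal of 7.88 each, would correspond to 12.3 RPMI reads, which is below that lowest peak, and to 20.5 CHIR reads, where the lowest CHIR peak had 20. Their absence from the RPMI and CHIR lists therefore does not show a lower signal there. A read count below the lowest peak of a list is not given, so no fold over RPMI was taken.

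The peaks beyond the gene ends had few reads. Each had 14 reads, as did 433 peaks of the CHIR+SB list, and their signal was 0.824 times the list's median. Their signal was 3.33 times the IgG signal (exact interval 1.20 to 10.6). They were 108 bp (CDX1) and 126 bp (CDX2) wide, so their signal per kb, 72.9 and 62.5, was higher than that of the main peaks. Of 1511 genes named in the CHIR+SB list, 14.8% had more than 1 peak, as CDX1 and CDX2 did.

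The comparison of CHIR+SB with CHIR asks what blocking the activin/Nodal receptors changes where GSK3 is inhibited. At CDX2 the normalized signal was lower in CHIR+SB, 47.3 against 68.0 in CHIR, a ratio of 0.695 with an exact interval of 0.530 to 0.906. At CDX1 it was 19.1 in CHIR+SB and 28.4 in CHIR, a ratio of 0.673 whose interval of 0.435 to 1.02 included 1. Over the 642 pairs of overlapping peaks that met no second peak of the other list, the interval lay below 1 at 4.21% and above 1 at 6.70%, and the median ratio was 1.00. Most pairs had fewer reads than CDX2, and intervals from fewer reads are wider and exclude 1 less readily. These shares are therefore not those of pairs with as many reads as CDX2. A lower ratio than at CDX2 was found at 11.7% of pairs, and a lower one than at CDX1 at 9.03%. Among the 57 pairs with at least as many CHIR reads as CDX1, the median ratio was 0.862, and 13 of them were below CDX2 and 9 below CDX1. These 57 pairs, which include CDX1 and CDX2, were chosen by CHIR reads, the denominator of the ratio. That choice by itself favours ratios below 1, so the median does not show that high peaks in general were lower in CHIR+SB.

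**Figure D3:**
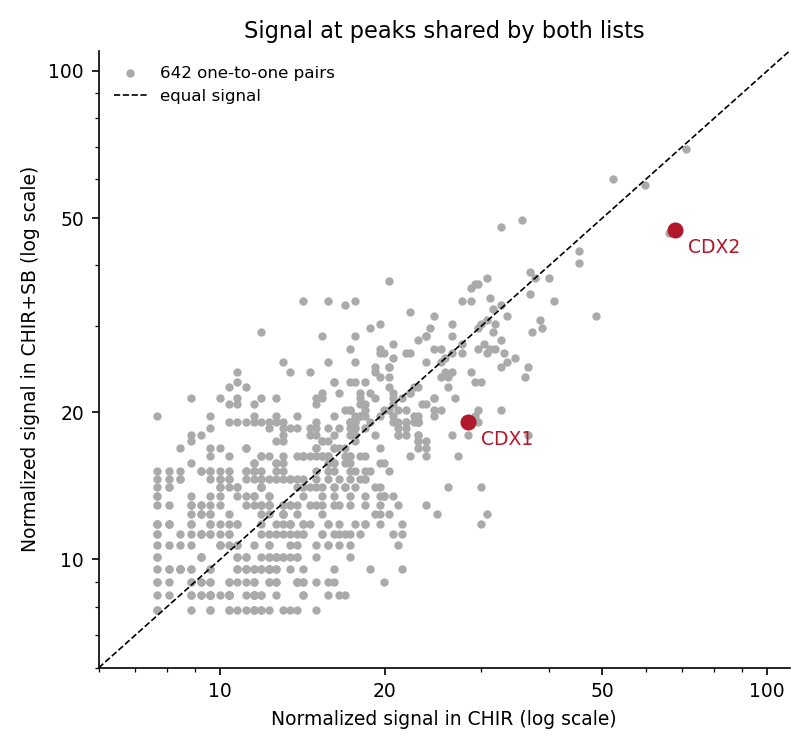
Normalized signal in CHIR+SB (vertical, log scale) against CHIR (horizontal, log scale) for 642 pairs of overlapping peaks, with CDX1 and CDX2 in red and the dashed line at equal signal. Both genes lie below the line, with ratios of 0.673 and 0.695, where the median pair has 1.00.

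The width of the peaks moved with the signal at both genes. The CHIR+SB peak lay wholly inside the CHIR peak at CDX1 and at CDX2, as it did at 27.3% of the 642 pairs. It did so at 28 of the 57 pairs highest in CHIR, a choice that may also favour the wider CHIR peak. The width of the CHIR+SB peak was 569 bp against 785 bp in CHIR at CDX1, a ratio of 0.725, and 928 bp against 1208 bp in CHIR at CDX2, a ratio of 0.768. Per kb of peak, the signal at CDX2 was 50.9 in CHIR+SB and 56.3 in CHIR, a ratio of 0.905 (0.690 to 1.18), and at CDX1 it was 33.6 in CHIR+SB and 36.2 in CHIR, a ratio of 0.929 (0.600 to 1.41). Both of these intervals include 1. Among all pairs, 31.2% had a lower per-kb ratio than CDX2 and 35.5% a lower one than CDX1. A lower signal per kb at CDX2 was not detectable at this depth.

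IgG reads differed between the 2 genes. At CDX2 the IgG signal was 12.6 in CHIR+SB (8.62 to 17.8) and 8.47 in CHIR (4.38 to 14.8). The 32 IgG reads of the CHIR+SB peak were the highest IgG count of that list, reached at 2 peaks, the other at AXIN2. High counts were not particular to CDX2: the EVX1 and SP5 peaks held 27 IgG reads each in CHIR+SB, where the list median was 6. At CDX1 the IgG signal was 3.15 in CHIR+SB and 4.23 in CHIR. Per kb, IgG signal at CDX2 was 13.6 in CHIR+SB and 7.01 in CHIR, against list medians of 9.24 and 7.74. Signal over IgG at CDX2 was 3.75 in CHIR+SB (exact interval 2.47 to 5.83) and 8.03 in CHIR (4.48 to 15.8). At CDX1 it was 6.07 in CHIR+SB (2.76 to 15.2) and 6.71 in CHIR (2.94 to 18.9). The median peak had 4.29 in CHIR+SB and 4.53 in CHIR. Over IgG, CDX2 thus stood below CDX1 and below the median peak in CHIR+SB, and above both in CHIR. The intervals of the 2 genes overlapped in both conditions.

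With the IgG signal subtracted, the ratio of CHIR+SB to CHIR was 0.582 at CDX2 (approximate interval 0.403 to 0.842) and 0.661 at CDX1 (0.392 to 1.11). The quotient of the signals over IgG was 0.467 at CDX2 (approximate interval 0.229 to 0.953) and 0.905 at CDX1 (0.291 to 2.81), against a median of 0.877 over the 630 pairs with IgG reads in both lists. That quotient compares both libraries in the same peak, so the peak's width does not enter it directly. With IgG subtracted and taken per kb of peak, a setting chosen after the data were seen, the ratio was 0.758 at CDX2 (approximate interval 0.525 to 1.096) and 0.911 at CDX1 (0.541 to 1.54), and both intervals included 1. As deposited signal, the ratio at CDX2 was 0.795 (0.606 to 1.04) when signals were scaled to a median ratio of 1 over promoter peaks, and 0.811 (0.627 to 1.04) when all CDX2 peaks were summed. Neither of these 2 intervals excluded 1.

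**Figure D4:**
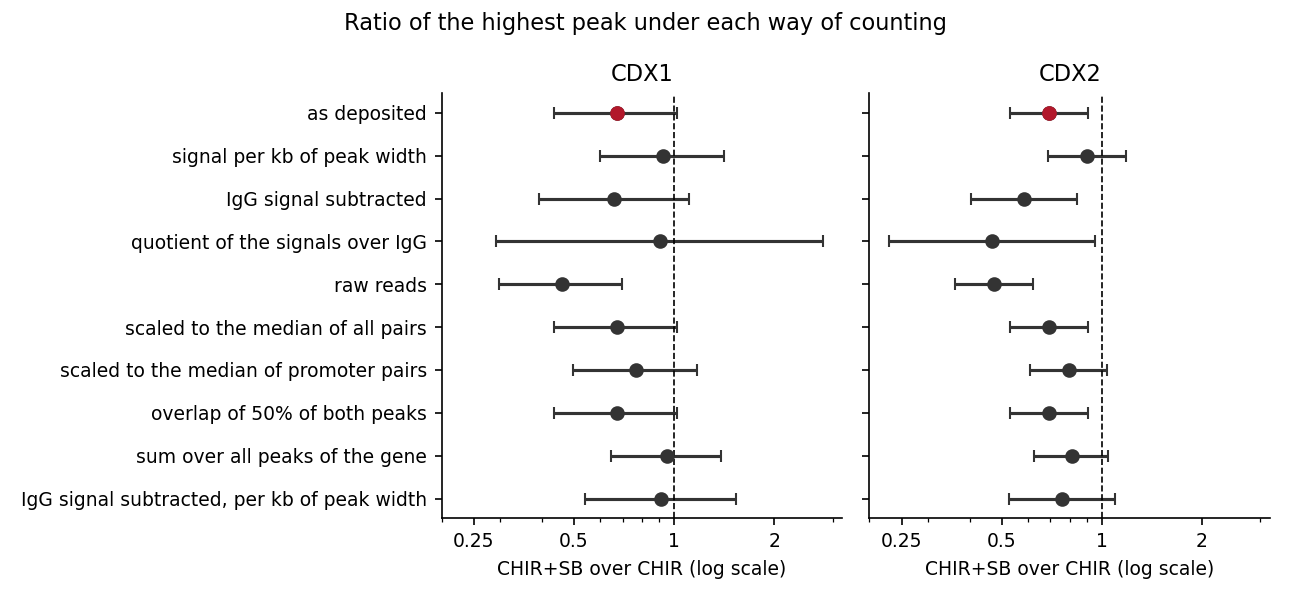
Ratio of CHIR+SB to CHIR at the main peak of CDX1 (left) and CDX2 (right) on a log scale, under each way of counting, with 95% intervals that are exact except for the approximate ones of the 3 IgG settings. Red points are the ratios as deposited, and the dashed line marks equal signal. Every ratio is below 1, and the CDX2 interval reaches 1 per kb with or without IgG subtracted, with promoter scaling and with peaks summed.

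Genes near CDX2, among them its ParaHox neighbour PDX1, also had peaks, and genes near CDX1 did not. PDX1, the ParaHox gene of pancreas and duodenum, had a peak within its gene with both treatments. It held 23 reads and 10 IgG reads in CHIR+SB (chr13:28499164-28499451) and 24 reads and 2 IgG reads in CHIR (chr13:28498978-28499230). The normalized signal was 12.9 in CHIR+SB and 9.22 in CHIR. The 2 peaks shared 67 bp and their centres were 203.5 bp apart, so these values cover mostly different sequence and no ratio is given. They lay 44.2 and 44.4 kb from the CDX2 TSS, beyond the end of CDX2. GSX1, the other ParaHox gene of the cluster, had no peak. URAD, listed under its older symbol PRHOXNB, had a CHIR peak with 27 β-catenin and 3 IgG reads, and none in CHIR+SB. This peak lay 9.45 kb upstream of the CDX2 TSS and 9.82 kb from the URAD TSS, so its assignment to URAD does not set it apart from CDX2. FLT3, which encodes a receptor tyrosine kinase of blood progenitors, had a CHIR+SB peak with 36 β-catenin and 2 IgG reads, 81.1 kb upstream of the CDX2 TSS, and none in CHIR. At equal signal the URAD peak would have 18.4 CHIR+SB reads and the FLT3 peak 52.7 CHIR reads, both above the lowest peak of the other list. No peak of another gene lay within 200 kb of the CDX1 peak in any list, and the nearest one, of RPS14, was 295 kb away with 15 reads in CHIR+SB and 30 in CHIR.

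By the signal of the whole peak, CDX2 stood high among genes of the posterior axis and CDX1 less high. A list of 31 genes, with the CDX and other ParaHox genes, Wnt and FGF ligands of the tail bud, TBX6, MSGN1, TBXT, EVX1, EVX2, TCF/LEF factors and Wnt targets, was chosen with earlier results of these data known. Of its 28 genes other than CDX, 13 had a peak within 50 kb of the TSS in CHIR+SB, 12 in CHIR and 1 in RPMI. The background of protein-coding genes was 3.73%, 2.69% and 0.888%. Of 38 HOX genes, a class whose regulatory DNA CDX proteins bind, 6 had such a peak in CHIR+SB, 7 in CHIR and 0 in RPMI. Of these HOX genes, 5 had one in both treatments. Over both lists, 21 genes had such a peak in CHIR+SB and 21 in CHIR. By the highest peak of each gene, CDX2 was 3rd in CHIR+SB, after EVX1 and SP5, and 1st in CHIR. CDX1 was 8th in CHIR+SB and 5th in CHIR, where SP5 with 85 reads stood above it and AXIN2 with 72 below. This order does not hold per kb of peak. CDX1 then had 33.6 in CHIR+SB, below the median of the whole list, 40.2, and 36.2 in CHIR, close to the median of 36.4. CDX2, with 50.9 and 56.3, lay above both medians. The median peak was narrower than those of CDX1, at 260 bp in CHIR+SB and 368 bp in CHIR. Narrow peaks of few reads can be high per kb, as those beyond the gene ends were.

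**Figure D5:**
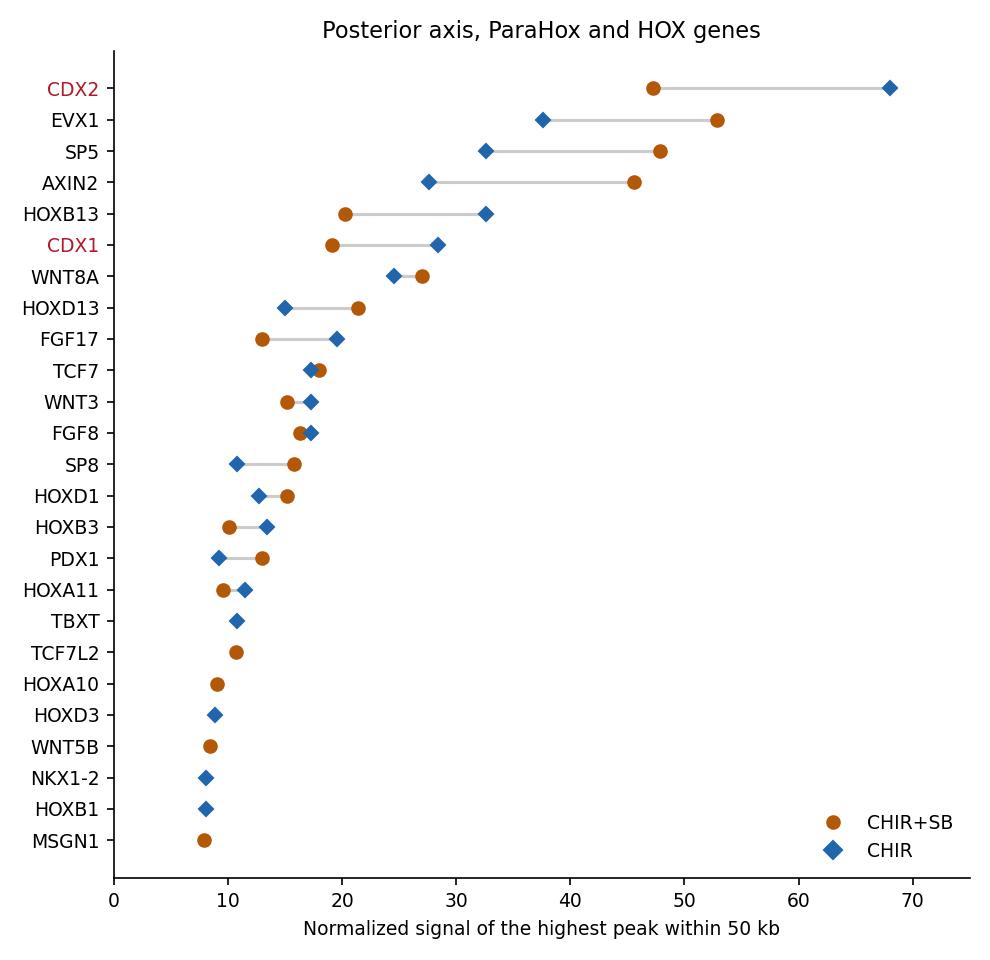
Normalized signal of the highest peak within 50 kb of the TSS for the 25 posterior axis, ParaHox and HOX genes with a peak in CHIR+SB (circles) or CHIR (diamonds), with CDX genes in red. CDX2 has 47.3 in CHIR+SB and 68.0 in CHIR, the highest CHIR value. Signals are those of whole peaks, and the highest peak of a gene need not have the same width or site in both lists. For AXIN2 the 2 symbols are different sites. Its highest CHIR+SB peak lay 0.38 kb from the TSS, with a width of 1440 bp and 31.6 per kb. Its highest CHIR peak lay 32.2 kb from the TSS, with a width of 599 bp and 46.2 per kb.

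The genes whose levels were most like those of CDX1 and CDX2 were taken from 290 other genes with a peak within 50 kb in both treatments and none in RPMI, by the distance between log2 signals of the highest peaks in CHIR+SB and CHIR. This likeness rests on 2 conditions with 1 library each. Nearest to CDX1 were COL2A1 (distance 0.214), HOXB13 (0.216), POU5F1 (0.264), PIM1 (0.303) and SCAMP5 (0.304). HOXB13, the most posterior gene of the HOXB cluster, had a signal of 20.3 in CHIR+SB and 32.6 in CHIR. No gene was as near to CDX2: EVX1 was closest at a distance of 0.868, followed by LINC01124 (0.931), SP5 (1.06), SLC2A1-DT (1.26) and UBE2D2 (1.27). EVX1 had a signal of 52.9 in CHIR+SB and 37.6 in CHIR, and SP5 had 47.8 in CHIR+SB and 32.6 in CHIR. The EVX1 peak was 1250 bp wide in CHIR+SB and 724 bp in CHIR, and the SP5 peak 984 and 712 bp. Per kb of peak, the signal at EVX1 was 42.3 in CHIR+SB and 52.0 in CHIR, and at SP5 48.6 in CHIR+SB and 45.8 in CHIR.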

How the data were processed

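Per the submitters' processing notes, alignment was with Bowtie, and hg19 and mm9 are the builds named. Its version, the peak caller and the calling thresholds are not given in the sources used. Gene positions in the lists are those of hg19, and coordinates keep their form. For every β-catenin library the authors deposited a peak list with counts of reads in the β-catenin and the IgG library, normalized signal, ratios, −log10 p-values and the assigned gene. The deposited signal was the count times 1 factor per library, and what it was scaled to is not stated. Decimal commas were read as points, and the −log10 p-values were not used. IgG libraries entered only through these counts.

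Analysis used Python 3.11.15, pandas 2.3.3, numpy 2.4.6, scipy 1.17.1 and matplotlib 3.10.9. Ratios of counts carry exact 95% (Clopper-Pearson) intervals, and settings that combine β-catenin and IgG counts carry approximate log-normal or error-propagated ones. Peaks were paired when they overlapped by at least 1 bp and met no second peak of the other list. Gene names matched the reference table (GRCh38.p14, names only) at 99.4% in CHIR+SB, 99.2% in CHIR and 100% in RPMI. All peaks of the 3 genes are named, neighbours within 200 kb of their highest peak, and the 5 genes nearest in signal to CDX1 and to CDX2. The members and gene lists were chosen with earlier results of these data known, and no list was tested. Of the HOX list, 1 gene is not reported here.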

Additional observations from a re-analysis of the deposited data

How the results depend on the processing

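Of 53 recomputed values, 41 were labelled the same and none reversed, but many of these could not differ. The RPMI counts of 0 stay 0 in any stricter subset, and each sum over the CHIR peaks of a gene holds a single peak. An overlap of 50% keeps the same nested pairs, and the median used to scale all pairs is 1.00. Counts of peaks also have no direction, so the tally does not measure how robust the results are. The signal ratio of CHIR+SB to CHIR at CDX2 kept its direction, and its interval included 1 per kb of width (0.905, and 0.758 with IgG subtracted, a setting chosen after seeing the data), when scaled to promoter pairs (0.795) and summed over all CDX2 peaks (0.811). The CDX1 ratio fell clear of 1 with raw reads, which take no account of depth (0.459). Within 1 kb of the TSS, 1 gene remained in CHIR+SB and 1 in CHIR, with 1 peak in each, since only CDX1 has a peak there. The count of 4 peaks in CHIR+SB was 2 above the common minimum signal of 9.61, the highest of the lists' lowest signals, and 2 among the 260 highest peaks. Counted by position within 50 kb whatever the assigned gene, CHIR+SB had 5 peaks and CHIR 4, with that of PDX1 in both and that of URAD in CHIR, in place of 4 and 2. Read depth limits every value, and each condition had 1 β-catenin library. No paired analysis was possible because no condition had replicates, and leaving out a replicate was not possible either.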
